A study of Homo sapiens with 42 samples.

Results

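Annexins are a family of proteins that bind acidic phospholipids in the presence of calcium. The 8 annexin genes ANXA1, ANXA2, ANXA3, ANXA4, ANXA5, ANXA6, ANXA7 and ANXA11 were followed across all 14 groups of a study of HL-60 cells. They were chosen by name from the table of normalized values, and their probe sets were selected on the mean level. Only probe sets annotated to exactly 1 gene symbol were used, with the probe set of highest mean over all 42 arrays kept for each gene. This left 8 annexins of 18417 genes, and each of the 8 had 1 such probe set. That mean is a description and was not tested. It ran from 7.11 for ANXA2 to 11.87 for ANXA1 on the log2 scale, and all 8 lay among the 40% of genes with the highest mean, whose lower bound was 6.88. The other annexins with a probe set of their own had means of 4.94 (ANXA9), 4.38 (ANXA10) and 4.16 (ANXA13), below that bound. Levels are given within a gene and are not compared between genes, because probe sets differ in brightness.

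HL-60 is a human acute myeloid leukemia line of promyelocyte-like cells that mature toward granulocytes with all-trans retinoic acid (ATRA). The arrays were of the Affymetrix Human Gene 1.0 ST type, with 3 in each group. The study asked how loss or inhibition of EZH2, the methyltransferase of Polycomb repressive complex 2, changes these cells with and without ATRA. The inhibitor experiment had 6 groups: untreated cells, 10 µM GSK343 and 2.5 µM HKMTI-1-005, and each of these 3 with 0.1 µM ATRA, all for 3 days. GSK343 inhibits EZH2, and HKMTI-1-005 inhibits both EZH2 and the H3K9 methyltransferases G9a and GLP. The knockdown experiment had 8 groups: untransduced cells (WT), cells with a non-targeting short hairpin RNA (Scr), and cells with either of the EZH2 hairpins shEZH2#1 and shEZH2#2, each without or with 0.1 µM ATRA. Transduced cells were selected in puromycin, so that transduction and selection cannot be told apart from the hairpin in a comparison with WT. The EZH2 knockdown (EZH2 KD) value below is the mean of both hairpins.

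EZH2 itself was lower with either hairpin. Its log2 level was 9.28 ± 0.19 (SD, n = 3) with shEZH2#1 and 9.29 ± 0.291 with shEZH2#2, against 10.4 ± 0.0943 in Scr and 10.0 ± 0.279 in WT cells. The promyelocyte genes MPO, ELANE, PRTN3, AZU1 and CTSG were all in the upper 40% of genes. So were the granulocyte maturation genes ITGAM, CYBB and CSF3R, while FPR1 was below it. The monocyte, T cell, B cell, erythroid and megakaryocyte markers that had a probe set were all below it. In the knockdown experiment 6 arrays had medians of 5.47 to 5.56, against 5.31 to 5.44 on the other 18: replicates 1 and 2 of Scr, replicate 1 of shEZH2#1, replicate 2 of shEZH2#2, and replicate 3 of WT+ATRA and of Scr+ATRA. On these arrays the annexins read low. The share of all genes that did so was not counted, so this is not given as a trait of the annexins. For Scr replicates 1 and 2 the comparison that follows is with Scr replicate 3 alone. Set against the arrays of their own group that are not among the 6, ANXA2, ANXA4, ANXA5, ANXA6 and ANXA7 were below all of them on 6 of the 6, ANXA11 on 5 of 6, and ANXA1 and ANXA3 on 4 of 6. The annexin calls of the knockdown experiment are therefore given also without these arrays, a setting chosen after seeing the data. Without them 0 annexins were called in the comparisons of ATRA in WT cells and of EZH2 knockdown with WT, as with them.

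Annexins share a core of repeats that holds calcium between the protein and the membrane, and they differ in their N-terminal tails. In myeloid cells they are known for granule fusion, membrane repair, phagocytosis and the damping of inflammation. ANXA1 is released by neutrophils and acts on formyl peptide receptors. ANXA3 promotes the joining of granules in neutrophils, and ANXA5 is the phosphatidylserine-binding protein used to stain dying cells.

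The promoters of the 4 annexins with the widest shifts are shown because these genes moved in partly different directions, and their start regions are built differently. RefSeq (GRCh38.p14) held start regions for all 8 annexins, 12 windows in total. Each window is 300 bases long, from 250 bases before the start site to 50 after it, and is printed 5′ to 3′ on the gene's own strand. Capitals mark 3 short words, searched on both strands. The first is the TATA box word TATAAA. The second is the word CCAAT, which reads ATTGG on the other strand. The third is the word AGGTCA, which reads TGACCT on the other strand and is the core word of nuclear receptor sites, those of the retinoic acid receptors among them. The windows are ANXA1 at chr9:73151615-73151914 (plus strand), ANXA2 at chr15:60397937-60398236 (minus strand), ANXA3 at chr4:78551520-78551819 (plus strand) and ANXA6 at chr5:151157730-151158029 (minus strand).
ANXA1: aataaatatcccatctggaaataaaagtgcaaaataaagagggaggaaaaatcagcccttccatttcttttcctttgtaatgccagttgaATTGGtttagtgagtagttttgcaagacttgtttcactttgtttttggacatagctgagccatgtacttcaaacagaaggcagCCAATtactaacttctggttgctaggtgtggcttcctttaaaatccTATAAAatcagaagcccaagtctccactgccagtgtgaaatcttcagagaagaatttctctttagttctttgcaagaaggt
ANXA2: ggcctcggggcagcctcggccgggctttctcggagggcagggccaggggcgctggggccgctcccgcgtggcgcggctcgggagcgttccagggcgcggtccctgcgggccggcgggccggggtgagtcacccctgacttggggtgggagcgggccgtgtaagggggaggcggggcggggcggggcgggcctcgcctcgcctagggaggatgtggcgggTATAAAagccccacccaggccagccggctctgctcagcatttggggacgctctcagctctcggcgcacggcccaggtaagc
ANXA3: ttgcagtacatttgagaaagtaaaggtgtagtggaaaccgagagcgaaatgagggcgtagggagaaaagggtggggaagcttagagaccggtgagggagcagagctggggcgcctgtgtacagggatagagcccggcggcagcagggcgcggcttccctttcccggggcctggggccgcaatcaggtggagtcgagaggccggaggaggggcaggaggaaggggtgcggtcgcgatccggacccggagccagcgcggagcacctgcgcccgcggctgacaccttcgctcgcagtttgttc
ANXA6: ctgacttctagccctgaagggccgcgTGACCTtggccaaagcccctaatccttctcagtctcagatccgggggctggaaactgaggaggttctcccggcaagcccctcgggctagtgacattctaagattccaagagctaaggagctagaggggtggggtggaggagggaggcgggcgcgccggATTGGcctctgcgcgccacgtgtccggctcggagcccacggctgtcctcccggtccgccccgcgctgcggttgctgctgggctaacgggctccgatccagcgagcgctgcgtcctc
The ANXA1 window held 0 CG dinucleotides and 37.7% G or C. The ANXA2 window held 32 CG dinucleotides, ANXA3 25 and ANXA6 25, with 76, 64.7 and 66.3% G or C. The median over all 35116 RefSeq windows was 14 CG dinucleotides, and 3.96% of windows had 0. A TATAAA word lay 31 bases before the start site in both ANXA1 and ANXA2, and 11.5% of all windows held one. CCAAT words lay in ANXA1 and ANXA6, as in 34.6% of all windows, and AGGTCA in ANXA6, as in 13.8% of all windows. AGGTCA was not particular to ANXA6. Windows of ANXA4 and ANXA11 that are not shown held it too, with 3 matches in the ANXA11 window at chr10:80205759-80206058. A further ANXA6 window, at chr5:151141635-151141934, held none of the 3 words. The ANXA3 window held none of the 3 words. A match is a description of the letters and does not show binding.

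**Figure D1:**
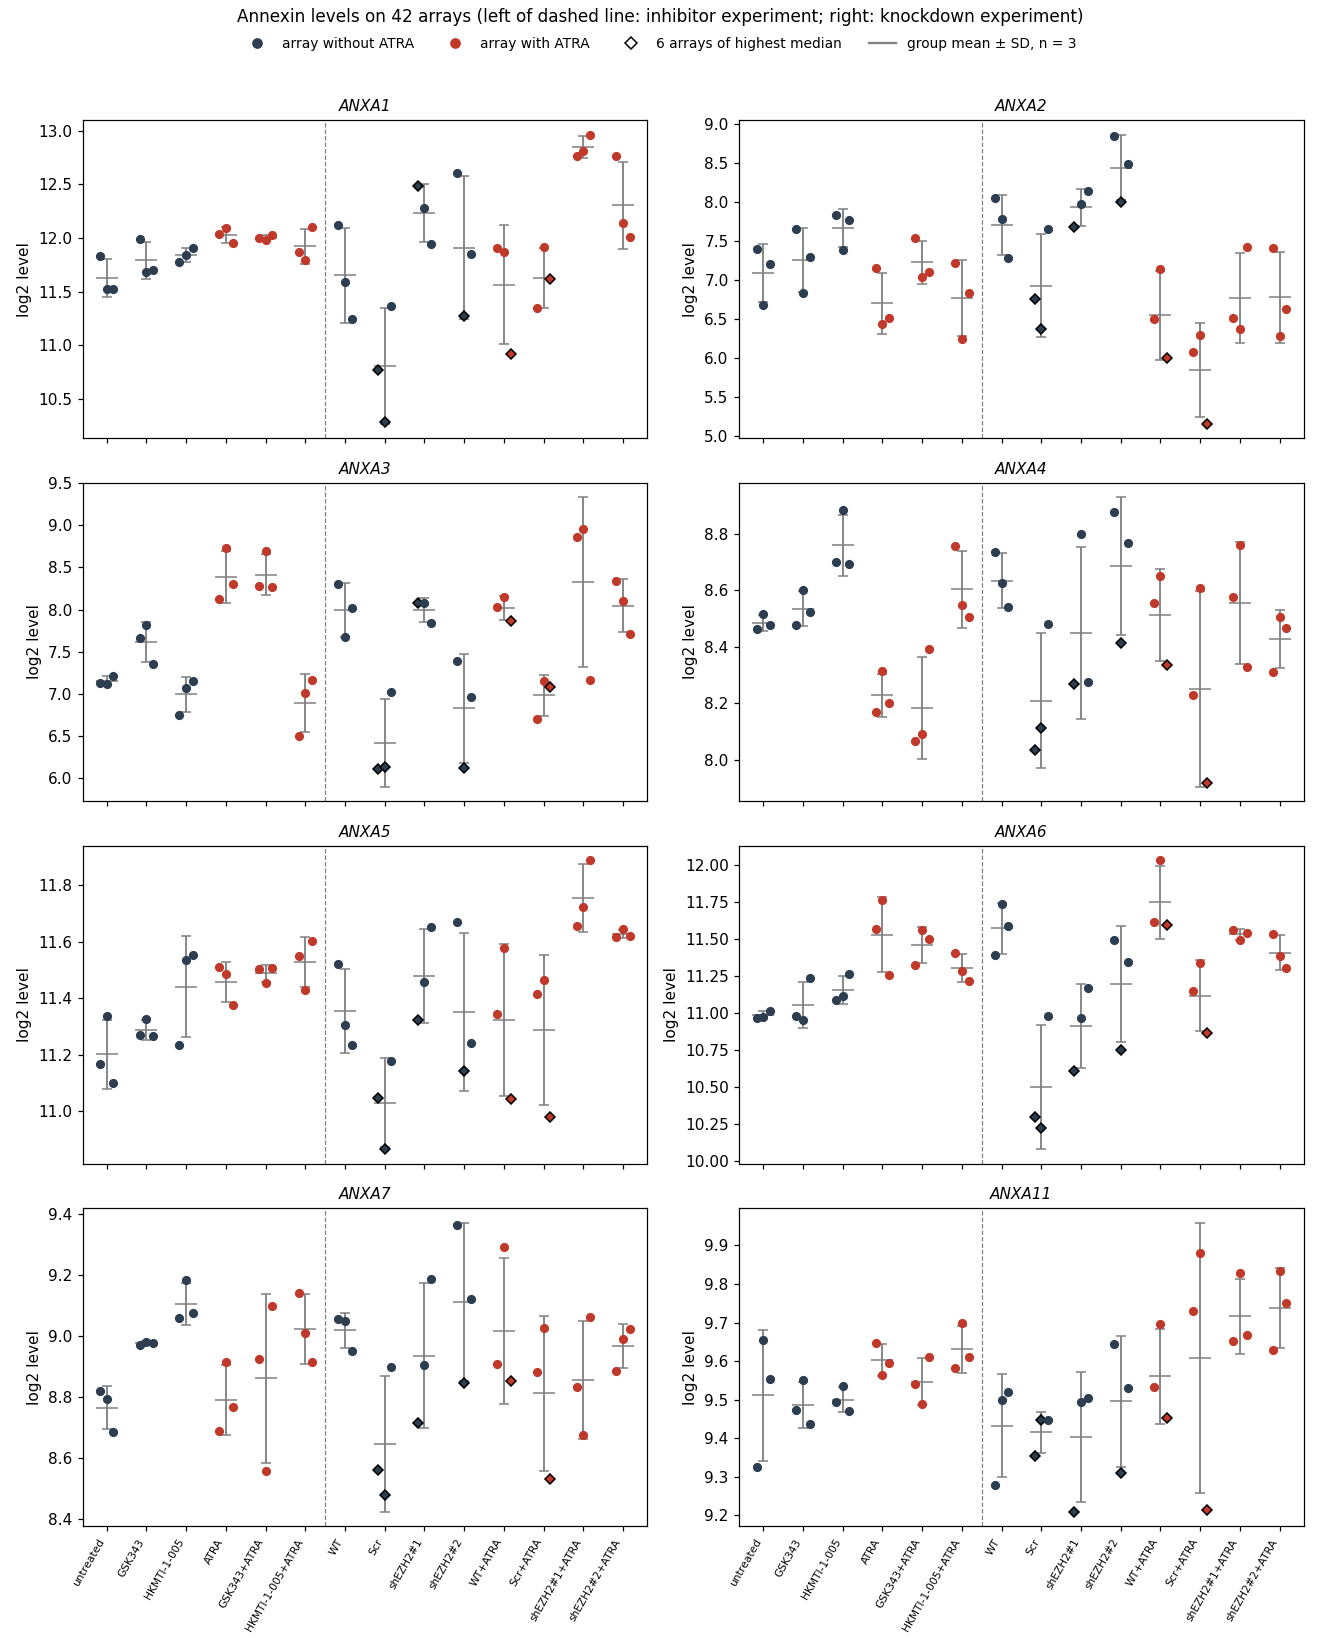
Log2 level of each annexin on every array, by group (x axis), with ATRA in red and without in dark blue. Grey bars give the group mean ± SD (n = 3), diamonds mark the 6 arrays of highest median, and the vertical scale differs between genes. ANXA2 was low in most groups with ATRA, and ANXA3 was high with ATRA alone (8.13 to 8.73) but not with HKMTI-1-005+ATRA (6.50 to 7.16).

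ATRA raised ANXA3 and ANXA6 in cells without inhibitor or hairpin of the inhibitor experiment. A call here needed an adjusted p of at most 0.05, a change of at least 1.3-fold and a mean in the upper 40% of genes. The p-values come from limma with Benjamini-Hochberg adjustment over all 18417 genes, and measure only the spread between arrays. Of the 8 annexins 2 were called, both higher, where 13.1% of all 7367 genes above the bound were called and 5.23% were called higher. The median change of the 8 was 0.17 on the log2 scale, against -0.05 over the 7367 genes. In bulk RNA, a change in the share of cells that make a transcript and a change in RNA per cell cannot be told apart.

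ANXA3 measured 7.13, 7.12 and 7.21 on the untreated arrays and 8.13, 8.73 and 8.30 on the arrays with ATRA. All 3 ATRA arrays were above all 3 untreated ones. The log2 change was 1.23 (SE 0.32), or 2.35-fold, with an adjusted p of 0.0117 (limma). The call was lost without untreated replicate 2 or ATRA replicate 2, where the adjusted p rose to at most 0.0792. ANXA6, a large annexin with a duplicated core that acts in endosome and cholesterol traffic, measured 10.97, 10.97 and 11.02 untreated and 11.57, 11.76 and 11.26 with ATRA. These groups did not overlap either. The change was 0.55 (SE 0.18), or 1.46-fold, with an adjusted p of 0.0487 (limma), and the call was lost without any 1 of these arrays but ATRA replicate 3.

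The estimate for ANXA3 ran from -0.10 to 1.23 over the 7 backgrounds in which ATRA was given. Next to the 1.23 in cells without inhibitor, its log2 change was 0.80 with GSK343 (SE 0.32, adjusted p 0.144) and -0.10 with HKMTI-1-005 (adjusted p 0.972). In the fit of both experiments no annexin was called for ATRA with GSK343, where 10.4% of genes were, nor with HKMTI-1-005, where 4.05% were. Leaving out single arrays also gave 0 calls in these backgrounds. The ANXA3 arrays with GSK343 and with GSK343+ATRA nevertheless did not overlap. In a fit of the inhibitor experiment alone ANXA3 was called for ATRA with GSK343 (0.80, adjusted p 0.0113, limma), as was ANXA6. With HKMTI-1-005 that fit gave 0 annexin calls. In the knockdown experiment ANXA3 changed by 0.02 in WT cells (adjusted p 0.993), 0.56 in Scr (0.432), 0.33 with shEZH2#1 (0.715) and 1.22 with shEZH2#2 (0.0179), all limma values. With shEZH2#2 it rose from 7.39, 6.12 and 6.97 to 8.33, 8.10 and 7.70, with no overlap. That call was lost without shEZH2#2 replicate 2, one of the arrays of high median, where the change was 0.87, and also without shEZH2#2+ATRA replicate 1 or 2.

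The ATRA response of untreated cells and of WT cells can be set against each other, because both received ATRA alone. For ANXA3 the responses differed by 1.21 on the log2 scale (SE 0.45), with an unadjusted p of 0.0115 and an adjusted p of 0.503 (limma). WT cells already stood at 8.30, 7.67 and 8.01 without ATRA, above the untreated cells of the inhibitor experiment, and measured 8.04, 8.15 and 7.87 with it. None of the 8 annexins was called for a difference between the experiments, and 0% of all genes were. The experiments share no array, so that a difference in level between their control cells cannot be told apart from one between the experiments.

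ANXA6 had positive estimates in 7 of 7 backgrounds, from 0.15 to 0.62, and was called in 3. Beside the untreated cells these were Scr and shEZH2#1. With GSK343 ANXA6 passed only in other settings. These were a fit of the inhibitor experiment alone (0.40, adjusted p 0.0283) and the array median as a covariate (0.39, adjusted p 0.0195, limma). In Scr it went from 10.29, 10.22 and 10.98 to 11.15, 11.34 and 10.87, a change of 0.62 (SE 0.18, adjusted p 0.0475, limma) in which Scr replicate 3 lay inside the ATRA range. ANXA6 was the 1 annexin called there, where 4.98% of genes were, and without the 6 arrays of high median its change fell to 0.26 (adjusted p 0.798). With shEZH2#1 it went from 10.61, 10.97 and 11.17 to 11.56, 11.49 and 11.54 with no overlap, a change of 0.62 (SE 0.18, adjusted p 0.0305, limma). It was again the 1 annexin called, where 8.65% of genes were. Without the 6 arrays its change was 0.47 (adjusted p 0.03), and ANXA1 (0.73, adjusted p 0.0445) and ANXA2 were called there too. Leaving out single arrays ended the Scr call for Scr replicate 1 or 2 or Scr+ATRA replicate 1 or 2. It ended the shEZH2#1 call for each array but shEZH2#1 replicate 3.

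ANXA2 moved the other way. ANXA2 pairs with S100A10 on the plasma membrane, where the complex holds plasminogen and its activator. Its estimate with ATRA was negative in 7 of 7 backgrounds, and in 5 of the 7 the arrays with and without ATRA did not overlap. It was called with shEZH2#2, where levels of 8.84, 8.00 and 8.48 fell to 7.41, 6.28 and 6.63. Every ATRA array was below every array without it. The change was -1.67 (SE 0.36), 3.17-fold lower, with an adjusted p of 0.00326 (limma), and it passed in each of the 6 fits that left out an array. With ANXA3 this made 2 annexins called in that background, where 8.36% of genes were.

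In the other 6 backgrounds ANXA2 did not pass over all 42 arrays. Its change was -1.16 in WT cells (adjusted p 0.138), -1.09 in Scr (0.107), -1.16 with shEZH2#1 (0.0522) and -0.90 with HKMTI-1-005 (0.248), each with an SE of 0.36 (limma). WT arrays went from 8.04, 7.78 and 7.28 to 6.49, 7.14 and 5.99, and Scr arrays from 6.75, 6.36 and 7.65 to 6.07, 6.29 and 5.15. In both pairs all ATRA arrays were below all arrays without it. With shEZH2#1 ANXA2 passed without the 6 arrays of high median, at -1.29 (adjusted p 0.0217), with the array median as a covariate, at -1.28 (0.00455), with an intensity trend (0.0422), with a replicate block (0.0357) and without shEZH2#1+ATRA replicate 3, at -1.49 (0.0202, limma). In Scr it passed with the covariate, at -1.39 (adjusted p 0.00706). The change was -0.39 in untreated cells (adjusted p 0.656) and -0.04 with GSK343 (0.978). No annexin was called for ATRA in WT cells, where 2.13% of genes were. The ANXA2 value carries an uncertainty of identity, because the processed pseudogene ANXA2P2 is a near copy of its transcript and the probes of either may read both. The ANXA2P2 probe set also had negative estimates with ATRA in all of these backgrounds, among them -1.30 in WT cells and -1.15 with shEZH2#2 (adjusted p 0.126 and 0.0961, limma), and was called in none.

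**Figure D2:**
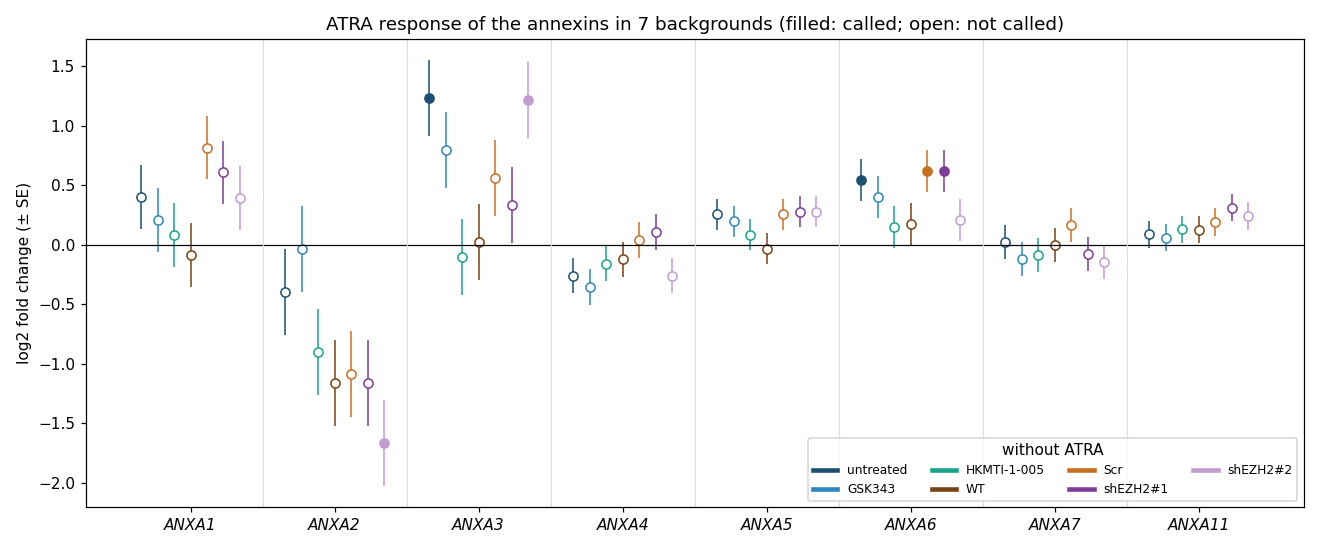
Log2 fold change with ATRA against the same background without it (y axis, ± SE from the limma fit) for the 8 annexins in 7 backgrounds, shown by colour. Filled points were called and open points were not. ANXA2 lies below 0 in all 7, ANXA6 above 0 in all 7, and ANXA3 spans -0.10 to 1.23.

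In the fit of both experiments ANXA1 and ANXA5 were not called for ATRA in any background. ANXA1 passed only in other settings. In untreated cells it passed in a fit of the inhibitor experiment alone (0.40, adjusted p 0.0144, limma), and the arrays with and without ATRA did not overlap. With shEZH2#1 it passed without the 6 arrays of high median (0.73, adjusted p 0.0445, limma). In Scr it passed without Scr replicate 3 (1.10, adjusted p 0.0113, limma). The estimates of ANXA1 ran from -0.09 in WT cells to 0.82 in Scr (SE 0.27, adjusted p 0.103, limma), and those of ANXA5 from -0.03 to 0.28. Both had positive estimates in 6 of 7 backgrounds. ANXA11, which tethers RNA granules to lysosomes and binds the calcium sensor PDCD6, had positive estimates in 7 of 7 and ran from 0.06 to 0.31. ANXA4, known from secretory epithelia and membrane repair, was negative in 5 of 7, from -0.35 to 0.11, and ANXA7, first named synexin for its part in granule fusion, ran from -0.15 to 0.17.

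No annexin passed the test with either inhibitor in the absence of ATRA. With GSK343 against untreated cells 0 of 8 were called, where 0.0136% of genes were, and with HKMTI-1-005 0 of 8, where 0.217% were. At an unadjusted p below 0.05 the counts of annexins were 0 for GSK343 and 1 for HKMTI-1-005, beside 232 and 353 of the 7367 genes above the bound. The 1 was ANXA7, which measured 8.82, 8.79 and 8.68 untreated and 9.06, 9.18 and 9.07 with HKMTI-1-005, a change of 0.34 (SE 0.14, adjusted p 0.822, limma). These 2 comparisons share the untreated arrays with that of ATRA alone. The doses of the inhibitors differed, so that their values are set side by side without a test between them.

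On top of ATRA the values of the inhibitors lay apart at ANXA3. With GSK343+ATRA its arrays read 8.28, 8.69 and 8.27, within the range of ATRA alone, and the change against ATRA was 0.03 (SE 0.32, adjusted p 1, limma). With HKMTI-1-005+ATRA they read 6.50, 7.02 and 7.16, within or below the untreated range of 7.12 to 7.21. Against ATRA alone this was a change of -1.50 (SE 0.32), 2.82-fold lower, with no overlap and an adjusted p of 0.0173 (limma). ANXA3 was the 1 annexin called there, where 0.76% of genes were called, and for GSK343+ATRA 0 of 8 were, where 0.0136% of genes were. The ANXA3 call was lost without ATRA replicate 2 or HKMTI-1-005+ATRA replicate 1 or 2. Over all 6 fits that left out an array the change stayed between -1.63 and -1.30, and the adjusted p reached at most 0.143 (limma).

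The same difference was tested as an interaction, which asks whether the ATRA response with the inhibitor differs from that without it. For ANXA3 and HKMTI-1-005 it was -1.33 (SE 0.45), with an unadjusted p of 0.00589 and an adjusted p of 0.932 (limma), so that it did not pass over all genes. For GSK343 it was -0.43 (SE 0.45, adjusted p 1). No annexin was called in either interaction, and 0% of all genes were called in both. The other 7 annexins had changes of -0.23 to 0.38 with HKMTI-1-005+ATRA against ATRA. The largest of them in size was ANXA4, at 8.17, 8.31 and 8.20 with ATRA and 8.76, 8.55 and 8.50 with HKMTI-1-005+ATRA (0.38, SE 0.15, adjusted p 0.298, limma).

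**Figure D3:**
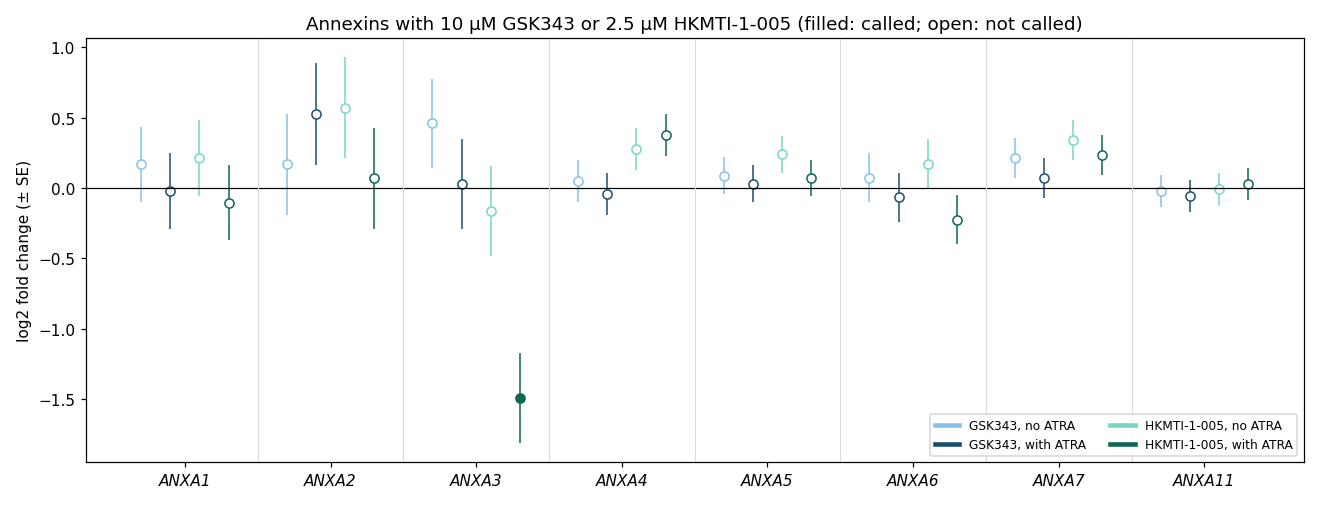
Log2 fold change of the 8 annexins with 10 µM GSK343 or 2.5 µM HKMTI-1-005 against the matching cells without inhibitor (y axis, ± SE from the limma fit), without and with ATRA. The filled point is the 1 call, ANXA3 at -1.50 with HKMTI-1-005 on top of ATRA; all other points are open.

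EZH2 knockdown against the non-targeting hairpin gave the most annexin calls. ANXA1, ANXA2, ANXA3, ANXA5 and ANXA6 were called higher, 5 of 8, where 6.12% of all genes were called and 4.9% called higher. All 8 estimates were positive, with a median of 0.47 against 0.13 over all genes above the bound. ANXA1 measured 10.78, 10.29 and 11.37 in Scr, 12.48, 12.28 and 11.95 with shEZH2#1 and 12.60, 11.27 and 11.85 with shEZH2#2. Only shEZH2#2 replicate 2 lay inside the Scr range. The change was 1.26 (SE 0.23), 2.40-fold, with an adjusted p of 0.00225 (limma), and among the fits that left out 1 array the call was lost without Scr replicate 2 alone, where the adjusted p was 0.0706.

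ANXA2 measured 6.75, 6.36 and 7.65 in Scr, 7.67, 7.97 and 8.14 with shEZH2#1 and 8.84, 8.00 and 8.48 with shEZH2#2, without overlap. Its change was 1.26 (SE 0.31, adjusted p 0.0194, limma). ANXA3 measured 6.11, 6.13 and 7.02 in Scr, 8.07, 8.08 and 7.84 with shEZH2#1 and 7.39, 6.12 and 6.97 with shEZH2#2. It was higher on all 3 shEZH2#1 arrays, while shEZH2#2 overlapped Scr. Its change was 0.99 (SE 0.28, adjusted p 0.0362, limma) over both hairpins.

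ANXA5 measured 11.05, 10.87 and 11.18 in Scr, 11.32, 11.46 and 11.65 with shEZH2#1 and 11.67, 11.14 and 11.24 with shEZH2#2, a change of 0.38 (SE 0.11, adjusted p 0.0473, limma). ANXA6 measured 10.29, 10.22 and 10.98 in Scr, 10.61, 10.97 and 11.17 with shEZH2#1 and 11.50, 10.75 and 11.34 with shEZH2#2, a change of 0.56 (SE 0.15, adjusted p 0.0327, limma). Both genes overlapped Scr on some arrays. ANXA4 and ANXA7 had estimates of 0.36 and 0.38 that did not pass (adjusted p 0.11 and 0.0755, limma), and ANXA11 was at 0.03.

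Each of these knockdown calls was lost without Scr replicate 2, and all but that of ANXA1 without Scr replicate 1. Both of these are arrays of high median, and Scr replicate 3 was the highest of its group for each of the 5 genes. In a fit of the knockdown experiment alone ANXA1 kept its call, and ANXA2, ANXA3, ANXA5 and ANXA6 lost theirs. ANXA2, ANXA3, ANXA5 and ANXA6 each lost the call without Scr replicate 1, Scr replicate 2 or shEZH2#2 replicate 1. ANXA3, ANXA5 and ANXA6 also lost it without shEZH2#1 replicate 2 or shEZH2#2 replicate 3, ANXA3 without shEZH2#1 replicate 1, and ANXA5 and ANXA6 without shEZH2#1 replicate 3. Without the 6 arrays of high median Scr keeps 1 array, which the fit assumes to vary like the other groups, and 0 of 8 annexins were called. The estimates stayed positive, at 0.80 for ANXA1, 0.70 for ANXA2, 0.55 for ANXA3, 0.33 for ANXA5 and 0.26 for ANXA6, with adjusted p of 0.447 to 0.898 (limma). Without Scr replicate 3, ANXA4 and ANXA7 were called too, and the count was 7. The part of array quality in these calls was not tested.

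Against WT cells 0 of 8 annexins were called with EZH2 knockdown, where 0.407% of genes were called. An unadjusted p below 0.05 was reached by 1205 of the 7367 genes above the bound and by 2 of the 8 annexins. Those 2 annexins were ANXA3 (-0.59, SE 0.28) and ANXA6 (-0.52, SE 0.15), both with a negative sign and adjusted p of 0.438 and 0.144 (limma). ANXA1 was at 0.42 and ANXA2 at 0.48 (adjusted p 0.521 and 0.602).

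Scr and WT themselves differed. Of the 8 annexins 3 were called lower in Scr, where 21.6% of all genes were called and 18.4% were called lower, and all 8 estimates were negative. ANXA3 measured 8.30, 7.67 and 8.01 in WT and 6.11, 6.13 and 7.02 in Scr, a change of -1.58 (SE 0.32, adjusted p 0.00251, limma). ANXA6 measured 11.39, 11.74 and 11.59 in WT and 10.29, 10.22 and 10.98 in Scr, a change of -1.07 (SE 0.18, adjusted p 0.000352, limma). Neither gene overlapped between these groups, and both calls passed in each of the 6 fits that left out an array.

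ANXA1 measured 12.12, 11.60 and 11.24 in WT against 10.78, 10.29 and 11.37 in Scr, with Scr replicate 3 inside the WT range. Its change was -0.84 (SE 0.27, adjusted p 0.0362, limma), and the call was lost without Scr or WT replicate 1 or 2. Without the 6 arrays of high median none of the 3 calls remained, at -0.29 for ANXA1, -0.98 for ANXA3 and -0.59 for ANXA6 (adjusted p 0.999, 0.836 and 0.249, limma). The comparisons of knockdown with Scr and of Scr with WT share the Scr arrays, so that a low Scr array moves both in opposite directions.

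**Figure D4:**
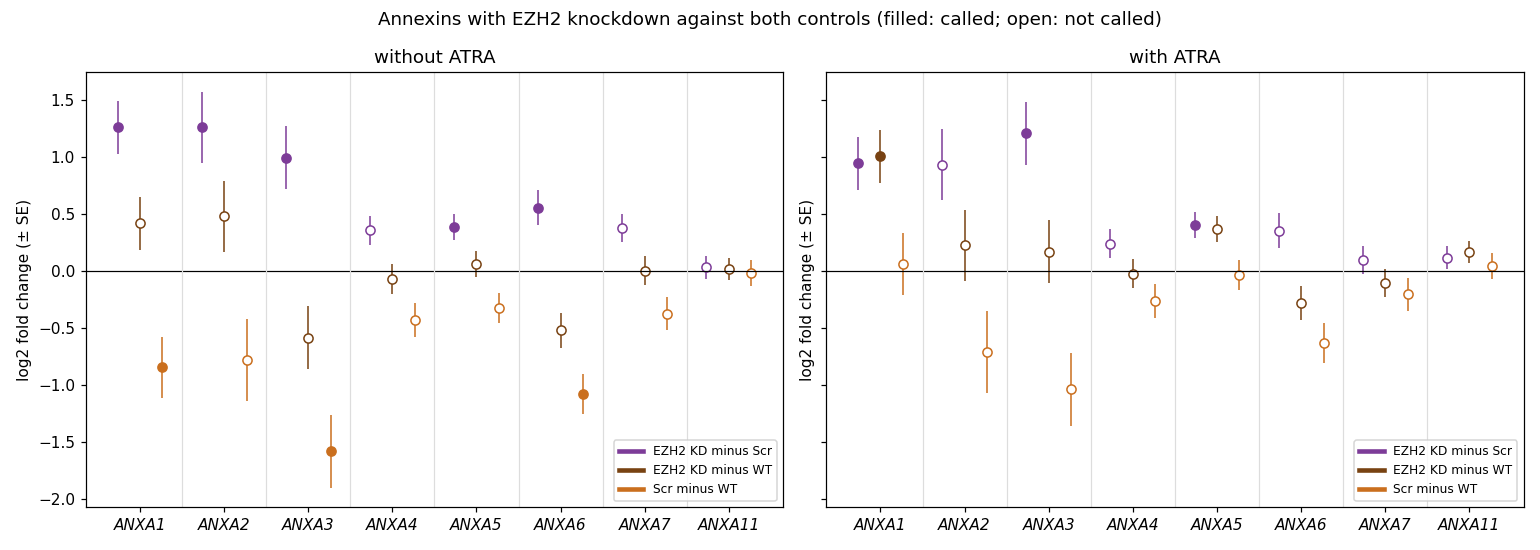
Log2 fold change of the 8 annexins (y axis, ± SE from the limma fit) for EZH2 knockdown against Scr, EZH2 knockdown against WT, and Scr against WT, without ATRA on the left and with ATRA on the right. Filled points were called. Without ATRA the 5 calls against Scr have 0 counterparts against WT; with ATRA ANXA1 was called against both controls, at 0.95 and 1.01.

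With ATRA in all cells ANXA1 was called against both controls. It measured 12.76, 12.81 and 12.96 with shEZH2#1+ATRA and 12.76, 12.14 and 12.01 with shEZH2#2+ATRA. Scr+ATRA arrays read 11.35, 11.91 and 11.62, and WT+ATRA arrays 11.90, 11.87 and 10.92. Every knockdown array was above every control array of either kind. The change was 0.95 (SE 0.23, adjusted p 0.0163) against Scr+ATRA and 1.01 (SE 0.23, adjusted p 0.0128) against WT+ATRA (limma). The call against Scr+ATRA was lost without Scr+ATRA replicate 1 or 3 or shEZH2#2+ATRA replicate 1 (adjusted p up to 0.108). The call against WT+ATRA was lost without WT+ATRA replicate 3, one of the arrays of high median, where the change was 0.69 (adjusted p 0.285). Both calls were also lost in a fit of the knockdown experiment alone. The main fit takes 1 spread over both experiments. The group SD of ANXA1 ran from 0.02 to 0.18 in the inhibitor experiment and from 0.10 to 0.67 in the knockdown experiment. The knockdown p-values may therefore be too small. Without all 6 arrays of high median ANXA1 stayed called against Scr+ATRA, at 0.94 (adjusted p 0.00714), and was not called against WT+ATRA, at 0.69 (adjusted p 0.0632, limma).

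Against Scr+ATRA 3 of 8 annexins were called, all higher, where 5.38% of genes were called and 3.39% called higher. Beside ANXA1 these were ANXA3 and ANXA5. ANXA3 measured 6.70, 7.16 and 7.09 in Scr+ATRA, 8.86, 8.95 and 7.17 with shEZH2#1+ATRA and 8.33, 8.10 and 7.70 with shEZH2#2+ATRA. The groups did not overlap, although shEZH2#1+ATRA replicate 3 lay next to the highest Scr+ATRA array. The change was 1.21 (SE 0.28, adjusted p 0.0105, limma). It was as large without the 6 arrays, at 1.26 (adjusted p 0.019), and among the fits that left out 1 array the call was lost without Scr+ATRA replicate 1 alone. It was also lost in a fit of the knockdown experiment alone (adjusted p 0.0704).

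ANXA5 measured 11.41, 11.47 and 10.98 in Scr+ATRA, 11.66, 11.72 and 11.89 with shEZH2#1+ATRA and 11.62, 11.65 and 11.62 with shEZH2#2+ATRA, without overlap. The change was 0.41 (SE 0.11, adjusted p 0.0379, limma), and 0.25 without the 6 arrays (adjusted p 0.203). The call was also lost without Scr+ATRA replicate 1 or 3, or without replicate 2 or 3 of shEZH2#1+ATRA or replicate 1 or 2 of shEZH2#2+ATRA. ANXA1 was the 1 annexin called against WT+ATRA, where 3.28% of genes were. ANXA3 was at 0.17 there (adjusted p 0.893) and ANXA5 at 0.37 (0.0828). Scr+ATRA against WT+ATRA gave 0 of 8 calls, where 0.991% of genes were called, with estimates of -1.04 for ANXA3 and -0.63 for ANXA6 (adjusted p 0.175 and 0.104, limma). Both groups hold an array of high median, and ANXA6 was called lower in Scr+ATRA without the 6 arrays (-0.58, adjusted p 0.0441) and with the array median as a covariate (-0.53, adjusted p 0.0123). No annexin was called for a different knockdown effect with and without ATRA, whether against Scr, where 0.0814% of genes were, or against WT, where 0.0271% were.

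The largest difference between the hairpins was at ANXA3 without ATRA and at ANXA1 with ATRA. Without ATRA ANXA3 was 1.17 higher with shEZH2#1 than with shEZH2#2 (SE 0.32, unadjusted p 0.000916, adjusted p 0.105, limma), and with ATRA 0.28 higher (adjusted p 0.993). ANXA1 was 0.54 higher with shEZH2#1+ATRA than with shEZH2#2+ATRA (SE 0.27, unadjusted p 0.0519, adjusted p 0.742, limma). No annexin was called between the hairpins without ATRA, where 0.502% of genes were, or with it, where 0.448% were. Taken alone against Scr, shEZH2#1 gave calls for ANXA1 (1.43), ANXA3 (1.58) and ANXA5 (0.45), and shEZH2#2 for ANXA1 (1.10), ANXA2 (1.52) and ANXA6 (0.70). With ATRA, shEZH2#1 alone kept the calls of ANXA1, ANXA3 and ANXA5 against Scr+ATRA, while shEZH2#2 alone gave 0, with estimates of 0.68, 1.07 and 0.34. ANXA1 was also not called with shEZH2#2 alone against WT+ATRA, at 0.74 (adjusted p 0.26, limma).

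Over the whole study 19 annexin calls were made in the 17 comparisons between groups, 14 higher and 5 lower. The share of all genes called in these comparisons ran from 0.0136 to 21.6%. Many comparisons share arrays, and 9 of the 19 calls were of knockdown against a control, where the arrays of high median bear on the count. Such arrays also enter the calls of Scr against WT and those for ATRA in Scr, with shEZH2#1 and with shEZH2#2. Only the calls of the inhibitor experiment are free of them. ANXA3 was called in 6 comparisons, ANXA6 in 5, ANXA1 in 4, and ANXA2 and ANXA5 in 2 each. ANXA4, ANXA7 and ANXA11 were called in none. The means of the 14 groups spanned 2.60 for ANXA2, 2.04 for ANXA1, 2.00 for ANXA3 and 1.25 for ANXA6, but 0.73 for ANXA5, 0.58 for ANXA4, 0.47 for ANXA7 and 0.33 for ANXA11, all as log2 differences. Scr was the lowest of the 14 groups for ANXA1, ANXA3, ANXA5, ANXA6 and ANXA7. The highest group was shEZH2#1+ATRA for ANXA1 and ANXA5, shEZH2#2 for ANXA2 and ANXA7, GSK343+ATRA for ANXA3 and WT+ATRA for ANXA6. In the order of group means most neighbours overlapped on single arrays. The exceptions were ANXA3 between untreated and GSK343 and between GSK343 and shEZH2#1, and ANXA5 between HKMTI-1-005+ATRA and shEZH2#2+ATRA and between shEZH2#2+ATRA and shEZH2#1+ATRA.

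Likeness of pattern was taken as Pearson's r over the 14 group means, which share arrays of high median and are a description. Among the annexins the closest pair was ANXA1 and ANXA5 (r = 0.939), followed by ANXA4 and ANXA7 (0.809) and ANXA3 and ANXA6 (0.7). ANXA2 had r of 0.0838 with ANXA1 and -0.071 with ANXA3. Among all genes above the bound the closest to ANXA1 were PTPRC (0.946), the leukocyte phosphatase CD45, and PIGT (0.945). The closest to ANXA2 were CPSF7 (0.948), SERPINB8 (0.943) and the chemokine gene CCL3 (0.939). CUX1 (0.929) was closest to ANXA3, DCAF7 (0.961) to ANXA5, and SACM1L (0.931) and GABARAPL1 (0.931) to ANXA6.

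Partners of the annexins showed changes of their own. Of 8 annexin-binding proteins, 7 had a probe set of their own and 6 were above the bound. S100A10, the partner of ANXA2, fell with ATRA in all 4 backgrounds of the knockdown experiment, by 0.64 in WT cells, 0.86 in Scr, 0.64 with shEZH2#1 and 0.89 with shEZH2#2 (adjusted p 0.0315, 0.0014, 0.0126 and 0.000396, limma). It was 0.83 higher with EZH2 knockdown than in Scr (adjusted p 0.000769), was at -0.04 against WT (0.95), and changed by -0.87 in Scr against WT (0.00118). In the inhibitor experiment its ATRA estimates were -0.38 to -0.24 and did not pass. AHNAK, a giant scaffold protein that binds the ANXA2 and S100A10 complex, changed with ATRA by -1.04 in untreated cells and by -1.96 with shEZH2#2 (adjusted p 0.00134 and 8.54e-08). It was called lower in 6 of the 7 backgrounds, where 4.05 to 13.1% of all genes were called, WT being the exception at -0.63 (adjusted p 0.193). Without ATRA AHNAK was also called higher with EZH2 knockdown than in WT, by 0.88 (adjusted p 0.0187, limma), where 0.407% of genes were called. Against Scr its value was 0.30 (adjusted p 0.373).

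DYSF, the membrane repair protein dysferlin that binds ANXA1 and ANXA2, rose with ATRA by 1.07 in untreated cells and by 1.07 with GSK343, and was at -0.05 with HKMTI-1-005 (adjusted p 0.0111, 0.0137 and 0.986, limma). It did not pass with ATRA in the knockdown experiment, at 0.08 in WT cells, 0.06 in Scr, 0.19 with shEZH2#1 and 0.76 with shEZH2#2 (adjusted p 0.963, 0.957, 0.837 and 0.122). It was 1.13 higher with EZH2 knockdown than in Scr and changed by -1.33 in Scr against WT (adjusted p 0.00594 and 0.00301). Against WT the knockdown value was -0.20 (adjusted p 0.807). The calcium-binding protein gene S100A4 was higher with EZH2 knockdown than in both controls, by 0.66 against Scr and by 1.08 against WT (adjusted p 0.0455 and 0.00379). PLA2G4A, the cytosolic phospholipase A2, was called once among the ATRA comparisons, at -0.94 with GSK343 (adjusted p 0.0377).

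Of 8 genes that move phosphatidylserine across membranes, the lipid annexins bind, 4 were above the bound. The scramblase family gene PLSCR1 rose with ATRA by 1.24 in untreated cells (adjusted p 3.18e-05), by 1.06 with GSK343 (0.000375), and changed by -0.77 with HKMTI-1-005+ATRA against ATRA (0.0468, limma). It did not pass with ATRA in the other 5 backgrounds, at 0.38 with HKMTI-1-005, 0.16 in WT cells, 0.20 in Scr, 0.45 with shEZH2#1 and 0.57 with shEZH2#2 (adjusted p 0.437, 0.849, 0.676, 0.188 and 0.0737). TMEM30A was called with ATRA in Scr (0.68), for EZH2 knockdown against Scr (0.48) and for Scr against WT (-0.53; adjusted p 0.0129, 0.0408 and 0.0278, limma). ANO6 was called for Scr against WT (-0.79, adjusted p 0.0352). ATP11A was called for knockdown against Scr with ATRA (0.67, adjusted p 0.0298). All of these comparisons hold arrays of high median. Of 8 genes of membrane repair and ESCRT, 6 were above the bound, and the calpain gene CAPN2 was the 1 called in the ATRA comparisons. It fell in 5 of the 7 backgrounds, by 1.01 in untreated cells (adjusted p 0.000639). The formyl peptide receptor genes FPR1, FPR2 and FPR3, whose products bind ANXA1, had means of 4.74, 4.08 and 4.21 and were below the bound.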

How the data were processed

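RNA of HL-60 cells was hybridized to 42 Affymetrix Human Gene 1.0 ST arrays, 3 biological replicates in each of 14 groups. Normalization by the authors used GC-RMA in Partek Genomics Suite, followed by that program's batch removal. The deposited values are log2 levels of 33297 probe sets, from 3.18 to 14.49; that they are on a log2 scale was taken from their range and the method. The sources used here give neither software versions nor the batches removed, and the fit takes no account of that removal, so p-values may be too small. Replicates were taken as labelled.

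Probe sets were named through the platform annotation: 19460 had 1 symbol, 1754 several and 12083 none. With the probe set of highest mean per gene, 18417 genes entered 1 limma fit (limma 3.58.1, R 4.3.3) of all 14 groups with 28 residual and 3.37 prior degrees of freedom. There were 17 comparisons and 5 interactions, and 2 comparisons between the hairpins were added after the data had been seen. A call needed a Benjamini-Hochberg adjusted p of at most 0.05, a change of at least 1.3-fold and a mean among the top 40% of genes (7367), which are the thresholds of the study's methods. Precision is limited by the number of arrays. Tests on simulated data preceded the fit.

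The members, gene lists and tests were chosen with earlier results of these data known. All 8 annexins are described, with the values of each array for those called. The partner lists were annexin-binding proteins, ANXA1 receptors, phosphatidylserine transport, and membrane repair with ESCRT. Alternatives were a replicate block, 1 fit per experiment, an intensity trend, averaged probe sets, quantile normalization, centring on array medians, no filter on low genes, no fold threshold, the methods' unpaired test in place of limma, and leaving out each array. After seeing the data, fits without the 6 arrays of highest median, with the array median as a covariate, and with 1 hairpin alone were added. Promoters and gene names came from RefSeq tables (GRCh38.p14). No protein sequence was used here.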

Additional observations from a re-analysis of the deposited data

Results flagged for a closer look

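The 3 probe sets annotated to both ANXA8L1 and ANXA8 are outside the genes compared above, because each maps to 2 symbols. They were singled out after their values had been seen, and their means of 5.78 to 6.30 lie below the bound of 6.88 used for calls. With ATRA against untreated cells they changed by -1.54, -1.66 and -3.22 on the log2 scale (limma adjusted p 5.32e-06, 7.16e-06 and 8.77e-06), with no overlap between these groups on any of the 3. On the probe set of largest change, 7933312, levels were 8.59, 8.05 and 7.22 in untreated cells and 4.31, 4.71 and 5.19 with ATRA. With ATRA it changed by -3.26 with GSK343, -3.46 with HKMTI-1-005, -2.28 in WT cells, -2.63 with shEZH2#1 and -3.55 with shEZH2#2 (adjusted p 1.05e-05, 3.03e-06, 0.00287, 0.000135 and 1.3e-06). In Scr the value was -0.98 (adjusted p 0.301), from 5.64, 5.57 and 6.93 to 5.12, 5.03 and 5.05. With ATRA the group means of this probe set were 4.53 to 4.74 in the inhibitor experiment and 5.06 to 5.22 in the knockdown experiment. All lay below the median of all values (5.4), so that the size of a change to such a level is uncertain in both experiments. Without ATRA it was 2.14 higher with EZH2 knockdown than in Scr (adjusted p 0.00148) and 0.68 above WT (0.591), and Scr minus WT was -1.46 (0.024). Which of the ANXA8 genes these probe sets read cannot be told apart.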

How the results depend on the processing

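Among single-gene values 235 kept their side of the threshold, 130 lost it and 0 reversed. Among counts of annexins called, 349 of the alternative values stayed within 1.5 times the count and 76 did not. With the replicate number as a block, counts became 1 for ATRA in untreated cells, 0 in Scr, 2 with shEZH2#1 and 3 for EZH2 knockdown against Scr. Whether the numbers pair the arrays cannot be settled on these values, because the authors' batch removal may have taken out a shared effect. Correlations of same-numbered arrays ran from -0.682 to 0.711 (inhibitor) and from -0.749 to 0.705 (knockdown). Their medians were 0.0841 and -0.0229, against -0.0101 and -0.00715 for arrays of other numbers. In the inhibitor experiment 9 of 18 arrays, and in the knockdown experiment 6 of 24, correlated best with their own number. With 1 fit per experiment, ANXA1 was added for ATRA in untreated cells, and ATRA with GSK343 gave 2, ANXA3 and ANXA6. Counts for ATRA in that setting were 0 in Scr, 0 with shEZH2#1 and 1 with shEZH2#2. For knockdown they were 1 against Scr, 0 against Scr+ATRA and 0 against WT+ATRA. With an intensity trend ATRA with shEZH2#1 gave 2. Centring on array medians, which moved the median of all genes from -0.0137 to -0.171 for Scr against WT and from 0.0115 to 0.106 for knockdown against Scr, gave 1 for ATRA in untreated cells, 0 in Scr, 0 with shEZH2#1, 0 for HKMTI-1-005+ATRA against ATRA and 6 for Scr against WT. The methods' unpaired test called 0 annexins after adjustment in each comparison, although 0 to 5 had an unadjusted p below 0.05. Of all 7367 genes above the bound only 0 to 14 reached an adjusted p of at most 0.05 in that test, so the 0 is not particular to annexins. Without the 6 arrays of high median, counts were 0 for ATRA in Scr, 3 with shEZH2#1, 1 with shEZH2#2, 0 for knockdown against Scr and against WT+ATRA, 0 for Scr against WT and 1 for Scr+ATRA against WT+ATRA. With the array median as a covariate they were 1 for ATRA with GSK343, 2 in Scr, 2 with shEZH2#1, 1 for knockdown against Scr, 1 for Scr against WT and 1 for Scr+ATRA against WT+ATRA. Against Scr, shEZH2#1 alone gave 3 and shEZH2#2 alone 3, and with ATRA shEZH2#2 alone gave 0 against Scr+ATRA and 0 against WT+ATRA. Leaving out 1 array gave 0 to 2 for ATRA in untreated cells, 0 to 2 in Scr, 0 to 1 with shEZH2#1 and 1 to 2 with shEZH2#2, 0 to 1 for HKMTI-1-005+ATRA against ATRA, 0 to 7 for knockdown against Scr, 0 to 3 against Scr+ATRA, 0 to 2 against WT+ATRA and 2 to 7 for Scr against WT. The cause of these changes was not tested.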

Other observations

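A second probe set of the table names ANXA2 together with SNU13, a ribonucleoprotein gene, and was not used for ANXA2. Its mean was 9.36, and its 14 group means lay between 9.05 and 9.52, a narrower span than the 2.60 of the ANXA2 probe set. The pseudogene ANXA2P2, a near copy of ANXA2, had a mean of 7.68. Like ANXA2 it was higher with EZH2 knockdown than in Scr, by 1.40 (limma adjusted p 0.0185), and unlike ANXA2, whose change of -0.78 did not pass (0.15), it was called lower in Scr than in WT, at -1.51 (0.0137). The other pseudogene probe sets read 5.48 (ANXA2P1) and 4.65 (ANXA2P3) on average.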
